A study of Homo sapiens with 6 samples.

Results

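Transcripts of 10 genes that make microRNAs and carry out their silencing were compared between U87 cells overexpressing miR-151a and U87 cells overexpressing miR-NC, the comparison group of the labels. The genes were DROSHA, DGCR8, XPO5, DICER1, TARBP2, PRKRA, AGO1, AGO2, AGO3 and TNRC6A. Their members are the probe sets that the platform annotation assigns to exactly 1 of these genes, which gave 29 probe sets of 49293 and 10 genes of 18132. A further probe set that names AGO1 and AGO3 together was left out. U87 is an established human glioblastoma line, and each group held 3 samples, profiled on 1-colour arrays with biotin labelling. No drug, time point or passage is named in the labels. The sources used here do not give how miR-151a was introduced, which of its arms was raised or for how long. Separate cultures are not stated for the replicates, and the p-values therefore describe sample-to-sample spread that may be technical only.

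A microRNA starts as a hairpin within a longer nuclear transcript. The Microprocessor, made of the ribonuclease DROSHA and its RNA-binding partner DGCR8, crops that hairpin, and exportin-5, encoded by XPO5, carries the product to the cytoplasm. DICER1, with the double-stranded RNA-binding proteins TARBP2 and PRKRA, cuts it to a short duplex. An Argonaute protein keeps 1 strand as a guide, and the GW182 protein TNRC6A links the Argonaute to the deadenylases and decapping factors that silence the target messenger RNA.

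Promoter sequence is shown for DICER1, DROSHA, DGCR8 and XPO5, so that these can be compared. All DICER1 probe sets and 1 of 5 DROSHA probe sets were called as lower, at a limma adjusted p under 0.05. DGCR8 and XPO5 had no called probe set. DICER1 has 5 annotated starts, of which the first listed is shown. Each is the 250 bases before an annotated transcription start, on the gene's strand, from the RefSeq annotation of GRCh38.p14. Capitals mark the NF-Y motif CCAAT or its reverse complement ATTGG. The DICER1 window is chr14:95157530-95157779, minus strand, the DROSHA window chr5:31532094-31532343, minus strand, the DGCR8 window chr22:20079991-20080240, plus strand, and the XPO5 window chr6:43576039-43576288, minus strand.
DICER1: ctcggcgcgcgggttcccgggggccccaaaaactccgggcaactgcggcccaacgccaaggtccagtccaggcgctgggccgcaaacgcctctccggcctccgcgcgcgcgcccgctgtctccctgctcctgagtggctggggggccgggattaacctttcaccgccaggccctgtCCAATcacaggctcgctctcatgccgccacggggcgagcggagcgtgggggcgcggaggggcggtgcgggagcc
DROSHA: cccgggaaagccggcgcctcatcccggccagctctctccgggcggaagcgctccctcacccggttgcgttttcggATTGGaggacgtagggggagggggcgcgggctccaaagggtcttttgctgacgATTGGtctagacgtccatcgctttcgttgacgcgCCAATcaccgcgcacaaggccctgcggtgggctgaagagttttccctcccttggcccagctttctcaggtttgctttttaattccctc
DGCR8: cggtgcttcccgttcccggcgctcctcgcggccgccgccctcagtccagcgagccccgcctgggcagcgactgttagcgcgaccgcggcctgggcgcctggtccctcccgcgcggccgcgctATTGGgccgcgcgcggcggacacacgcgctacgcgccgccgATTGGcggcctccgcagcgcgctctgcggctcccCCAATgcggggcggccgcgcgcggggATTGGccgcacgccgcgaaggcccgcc
XPO5: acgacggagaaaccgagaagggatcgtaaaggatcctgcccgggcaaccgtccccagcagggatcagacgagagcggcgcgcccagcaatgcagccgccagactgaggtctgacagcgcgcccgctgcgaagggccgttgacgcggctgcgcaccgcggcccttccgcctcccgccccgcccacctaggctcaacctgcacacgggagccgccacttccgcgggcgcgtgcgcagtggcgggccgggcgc

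The DGCR8 window held 4 copies of the motif, the DROSHA window 3, the DICER1 window 1 and the XPO5 window 0. The table of start sites lists 17 windows for 9 of the 10 genes, and CCAAT on either strand was found in 9 of the 17 windows and in at least 1 window of 7 genes. Of all 35116 windows of this length, 11240 held it. The SP and KLF motif GGGCGG, or its reverse complement, was in 13 of the 17 windows, against 42.6% of all windows. At least 1 window of TARBP2, PRKRA and AGO1, which had no called probe set, also held CCAAT, as did that of TNRC6A. The E2F motifs TTTCGCGC and TTTGGCGC and the E-box CACGTG, each sought on both strands, were in 0 of the 17 windows, against 0.439%, 0.550% and 6.34% of all windows. Overlaps between CCAAT and the other motifs were not removed. Some windows of a gene share bases, as in DICER1 and PRKRA, so the 17 are not independent of each other. AGO2 had no window. These are matches of letters and no measure of binding.

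The 6 arrays had median intensities from 57.1 to 58.6, lower quartiles from 14.9 to 15.6 and a median within-group SD of 0.080 on the log2 scale, and with 3 arrays a group their number limits how precisely any gene is measured. The 6 glioma line markers VIM, CD44, FN1, NES, TNC and GFAP were all above the array median in every sample, with GFAP, an astrocyte filament gene, just above it at 61.4 and 63.2. NES, an intermediate filament of neural progenitors, was lower with miR-151a (log2 difference -0.31, limma adjusted p = 0.0079). CD44 was lower and TNC higher without overlap (log2 difference -0.155 and 0.134), but neither passed (limma adjusted p = 0.105 and 0.147). VIM was the brightest of the 6, with means of 19170 with miR-151a and 19019 with miR-NC. The sum of the 6 ranged from 32320 to 34460 with miR-151a and from 32320 to 34690 with miR-NC. No intensity was at 0, so none of the 13 markers of other cell types could be. Of the 13, only SNAP25, a neuron marker, was above the array median in every sample (mean 339 with miR-151a, 334 with miR-NC). PTPRC, CD14 and CDH1 were below the lower quartile in every sample. PECAM1, an endothelial marker, was lower without overlap (36.4 with miR-151a, 44.5 with miR-NC, limma adjusted p = 0.11), and the groups of the others overlapped. The summed levels overlapped between groups for immune markers (74.21 to 75.03 with miR-151a, 73.06 to 76.51 with miR-NC), endothelial markers (102.1 to 110.0 and 109.3 to 118.5), neuron and oligodendrocyte markers (447.2 to 462.6 and 447.7 to 453.9) and epithelial markers (36.84 to 44.99 and 35.65 to 45.62). The log2 ratio of 3 prime over 5 prime control probe sets, whose meaning depends on a labelling that the sources used here do not settle, ran from 0.27 to 0.30 with miR-151a and from 0.37 to 0.43 with miR-NC for beta-actin, without overlap. For GAPDH it ran from 0.045 to 0.052 and from 0.029 to 0.049. The part of this shift in the results below was not tested. In RNA from whole cultures, fewer cells of a kind and less RNA per cell cannot be told apart.

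DICER1 was lower with miR-151a on every one of its probe sets, DROSHA was lower on 1 of 5, and TNRC6A on 1 of 6. These 6 probe sets fell by 11.5% at the least and fell by 25.0% at the most. No probe set of DGCR8, XPO5, TARBP2, PRKRA, AGO1, AGO2 or AGO3 passed the threshold, a Benjamini-Hochberg adjusted p of 0.05 over all 49293 probe sets in limma. In counts, 6 of the 29 probe sets passed as lower, where 7.27% of all probe sets did, and 0 passed as higher, where 6.81% did. The 6 make 20.7% of the members' probe sets, but 4 of them measure DICER1, so they are not independent of each other. Of the 29, 22 lay above the array median in all 6 samples. The shares of all probe sets given here and below were not matched for intensity. At an unadjusted limma p under 0.05, 11 were lower and 3 higher, and 15.2% and 12.9% of all probe sets were. The median log2 difference, miR-151a minus miR-NC on the log2(intensity + 1) scale, was -0.09 over the 29 probe sets and -0.01 over all probe sets.

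**Figure D1:**
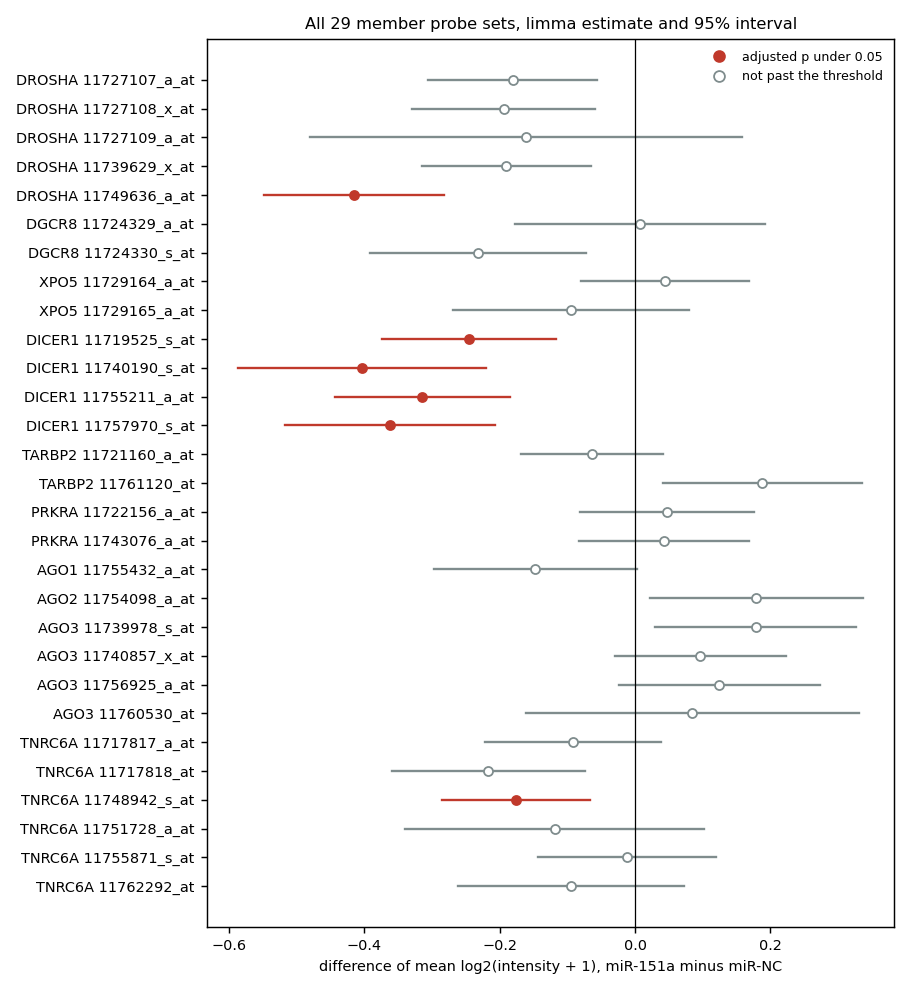
Difference of mean log2(intensity + 1), miR-151a minus miR-NC, for all 29 probe sets of the 10 genes, with the 95% interval of the limma fit (n = 3 samples per group; filled red points passed the adjusted p threshold of 0.05, open grey points did not). All 4 DICER1 probe sets are red and left of 0, between -0.40 and -0.25, while the 4 AGO3 probe sets lie between 0.08 and 0.18 and none of them is red.

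For 14 probe sets all miR-151a samples lay below all miR-NC samples, for 3 they lay above, and for the other 12 the groups overlapped. Of all probe sets, 18.6% were lower and 15.3% were higher without overlap. The 14 belonged to DICER1, DROSHA, TNRC6A, DGCR8, TARBP2 and AGO1, and the 3 to TARBP2, AGO2 and AGO3. Of the 29, 4 lay below the lower quartile in all 6 samples (1 of DROSHA, 1 of DGCR8 and 2 of TNRC6A). With 1 probe set per gene, the brightest, and adjustment over all 18132 genes, 1 of the 10 genes passed, DICER1 as lower. That is close to the 8.11% of all genes that passed as lower (15.4% passed in either direction), and 0 passed as higher, where 7.27% of genes did; at an unadjusted limma p under 0.05, 4 members were lower and 2 higher, where 16.0% and 12.8% of all genes were. The median over the 10 genes was -0.09 and over all genes -0.01.

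DICER1 encodes the ribonuclease that releases the mature duplex from the precursor hairpin. Its brightest probe set, 11719525_s_at, had intensities of 257, 254 and 243 in miR-151a replicates 1 to 3 and of 315, 292 and 288 in miR-NC replicates 1 to 3. All values with miR-151a were below all values with miR-NC. The means were 251 ± 7.51 (SD, n = 3) and 298 ± 14.6 (SD, n = 3), and it fell by 15.6% (log2 difference -0.25, standard error 0.06, 95% interval -0.37 to -0.12, adjusted p = 0.024). The second, 11755211_a_at, read 145, 147 and 134 with miR-151a against 183, 174 and 172 with miR-NC. It fell by 19.6% (log2 difference -0.31, 95% interval -0.44 to -0.18, adjusted p = 0.0094).

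The remaining DICER1 probe sets had the larger differences of the 4. 11757970_s_at read 150.1, 142 and 149 with miR-151a and 206, 187 and 175 with miR-NC, a log2 difference of -0.36 (95% interval -0.52 to -0.21, adjusted p = 0.011). 11740190_s_at read 84.5, 77.8 and 79.1 against 118, 107 and 95.9, a log2 difference of -0.40 (-0.59 to -0.22, adjusted p = 0.014). In each of the 4 the groups stood apart. The miR-NC values of the last one spread more widely, with an SD of 11.2 against 3.54 with miR-151a. In Affymetrix naming the suffixes _s_at and _x_at mark probe sets that can match further transcripts, so 3 of the 4 DICER1 values are less certain to be DICER1 alone; the one with the suffix _a_at fell as well. The same caution applies to every other probe set with these suffixes. Among them are TNRC6A 11748942_s_at, DGCR8 11724330_s_at, AGO3 11739978_s_at, DROSHA 11727108_x_at and 11739629_x_at, and the brightest probe set of HNRNPA1. Averaged over its 4 probe sets, DICER1 had a log2 difference of -0.33 (95% interval -0.46 to -0.21, adjusted p = 0.0054 over genes). Without 1 sample at a time, 3 of the 4 passed in every case, with adjusted p up to 0.048, while 11719525_s_at did not pass when the sample left out was the second (adjusted p = 0.057) or the third (0.079) of miR-151a, or the first (0.078) or the second (0.058) of miR-NC. Its range over the 12 alternatives was 0.00090 to 0.079.

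**Figure D2:**
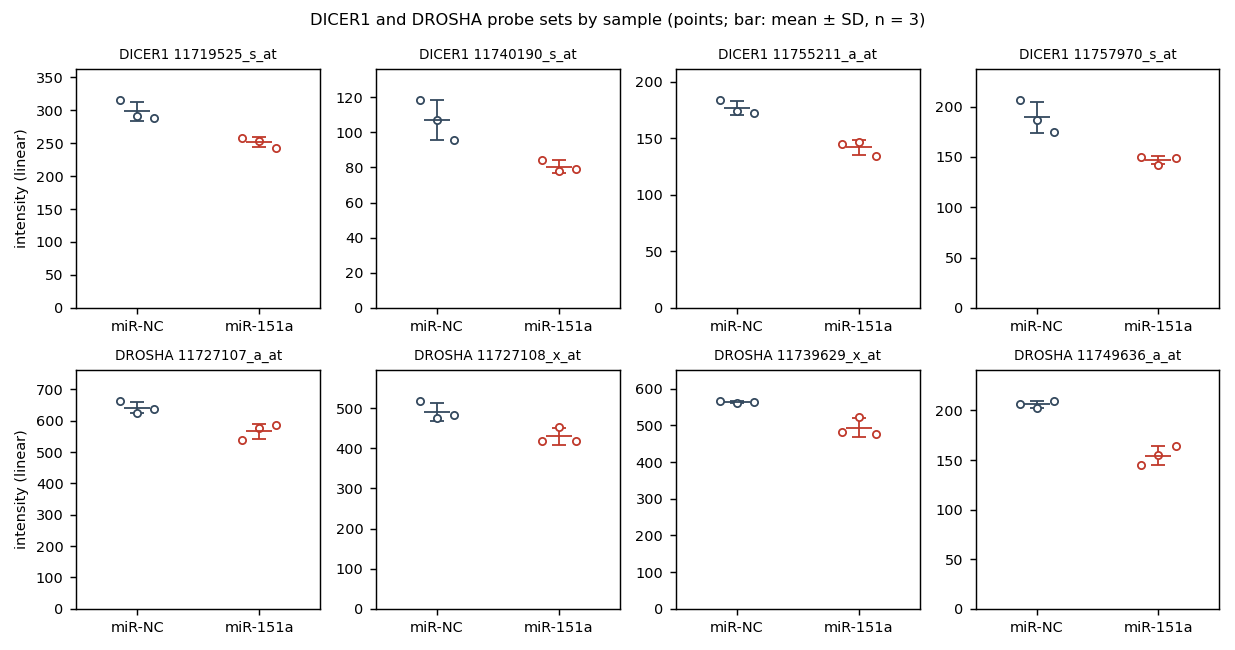
Linear intensity of the 4 DICER1 probe sets and the 4 DROSHA probe sets above the lower quartile, each panel on its own axis from 0 (points are samples, bars the mean ± SD, n = 3 per group). In all 8 panels the 3 miR-151a points lie below the 3 miR-NC points; the DROSHA probe set 11749636_a_at went from 206 to 154, and the other 3 DROSHA panels show gaps that did not pass the test.

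DROSHA, the nuclease of the Microprocessor, had 5 probe sets, and 1 of them fell past the threshold. This was 11749636_a_at, with intensities of 145, 155 and 164 in miR-151a replicates 1 to 3 and of 206, 203 and 209 in miR-NC replicates 1 to 3. The means were 154 ± 9.35 (SD, n = 3) and 206 ± 3.30 (SD, n = 3), and it fell by 25.0% (log2 difference -0.42, standard error 0.06, 95% interval -0.55 to -0.28, adjusted p = 0.0034). It was the largest fall among the 29 probe sets, and it passed in all 12 alternatives, with adjusted p up to 0.017.

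The other DROSHA probe sets had smaller differences, and none of them passed. The brightest, 11727107_a_at, read 539, 575 and 586 with miR-151a and 662, 626 and 638 with miR-NC. Its log2 difference was -0.18 (95% interval -0.31 to -0.06, adjusted p = 0.064). For 11739629_x_at the values were 482, 524 and 476 against 565, 562 and 563 (log2 difference -0.19, adjusted p = 0.053), and for 11727108_x_at they were 418, 453 and 417 against 517, 475 and 482 (log2 difference -0.19, adjusted p = 0.066). In these 3 the groups did not overlap either, with every miR-151a value below every miR-NC value. The fifth, 11727109_a_at, was dim, with intensities from 8.70 to 14.5 under every array's lower quartile, and overlapping groups. All 3 brighter ones passed with a pseudocount of 32 (adjusted p = 0.016, 0.013 and 0.023), without dim probe sets and with a variance trend, so their side of the threshold depends on the processing. The mean over the 5 probe sets had a log2 difference of -0.23 (95% interval -0.35 to -0.10, adjusted p = 0.023 over genes).

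The probe sets of DROSHA did not clearly disagree. Taken within each sample as a log2 ratio to the brightest, 11749636_a_at was 0.23 lower with miR-151a than with miR-NC (difference -0.23, 95% interval -0.37 to -0.10), with an adjusted p of 0.092 over 26856 such pairs of probe sets in all genes. Among 19 pairs within the 8 members that have more than 1 probe set, 0 passed in limma, where 1.78% of all pairs did, and 3 had an unadjusted p under 0.05. Besides that of DROSHA 11749636_a_at, these were in TARBP2 (difference 0.25, adjusted p = 0.12) and DGCR8 (difference 0.24, adjusted p = 0.20). The share of all pairs at that unadjusted threshold is not given here, so the 3 cannot be set against a background.

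DGCR8 is the RNA-binding partner of DROSHA in the Microprocessor. Its probe set 11724330_s_at read 149, 142 and 167 in miR-151a replicates 1 to 3 and 174, 177 and 188 in miR-NC replicates 1 to 3. The groups did not overlap, but miR-151a replicate 3 lay close to miR-NC replicate 1. The means were 153 ± 12.7 (SD, n = 3) and 180 ± 7.19 (SD, n = 3), a log2 difference of -0.23 with a 95% interval from -0.39 to -0.07, and the adjusted p was 0.063. Without miR-151a replicate 3 it passed as lower (log2 difference -0.30, adjusted p = 0.032), and over the 12 alternatives its adjusted p ran from 0.0090 to 0.175. The second probe set, 11724329_a_at, was below the lower quartile of every array, from 9.83 to 11.9, with a log2 difference of 0.01 (95% interval -0.18 to 0.19).

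XPO5, the export receptor of the precursor hairpin, gave no difference beyond the spread. Its brighter probe set, 11729165_a_at, read 81.2, 96.8 and 95.4 with miR-151a and 102, 93.7 and 96.2 with miR-NC. The groups overlapped, and miR-151a replicate 1 was the low value. The log2 difference was -0.09 (95% interval -0.27 to 0.08, adjusted p = 0.48). The other probe set, 11729164_a_at, was at 0.04 (-0.08 to 0.17), so differences of about the size of the DICER1 fall lie outside its interval, while those up to -0.27 remain within that of the first.

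The double-stranded RNA-binding partners of DICER1 did not fall past the threshold. PRKRA, also known as PACT, read 452, 439 and 459 with miR-151a and 457, 414 and 441 with miR-NC on 11743076_a_at. The groups overlapped and the log2 difference was 0.04 (95% interval -0.08 to 0.17, adjusted p = 0.68). Its second probe set, 11722156_a_at, was at 0.05 (-0.08 to 0.18).

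TARBP2, also known as TRBP, had probe sets on opposite sides of 0. 11721160_a_at read 314, 319 and 322 with miR-151a and 334, 333 and 330 with miR-NC, without overlap but with a log2 difference of only -0.06 (95% interval -0.17 to 0.04, adjusted p = 0.42). The dimmer 11761120_at, below the array median in every sample, read 48.8, 50.45 and 49.3 against 45.2, 45.5 and 39.6, also without overlap, at 0.19 (0.04 to 0.34, adjusted p = 0.093). Averaged over both, TARBP2 was at 0.06 (-0.04 to 0.16).

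**Figure D3:**
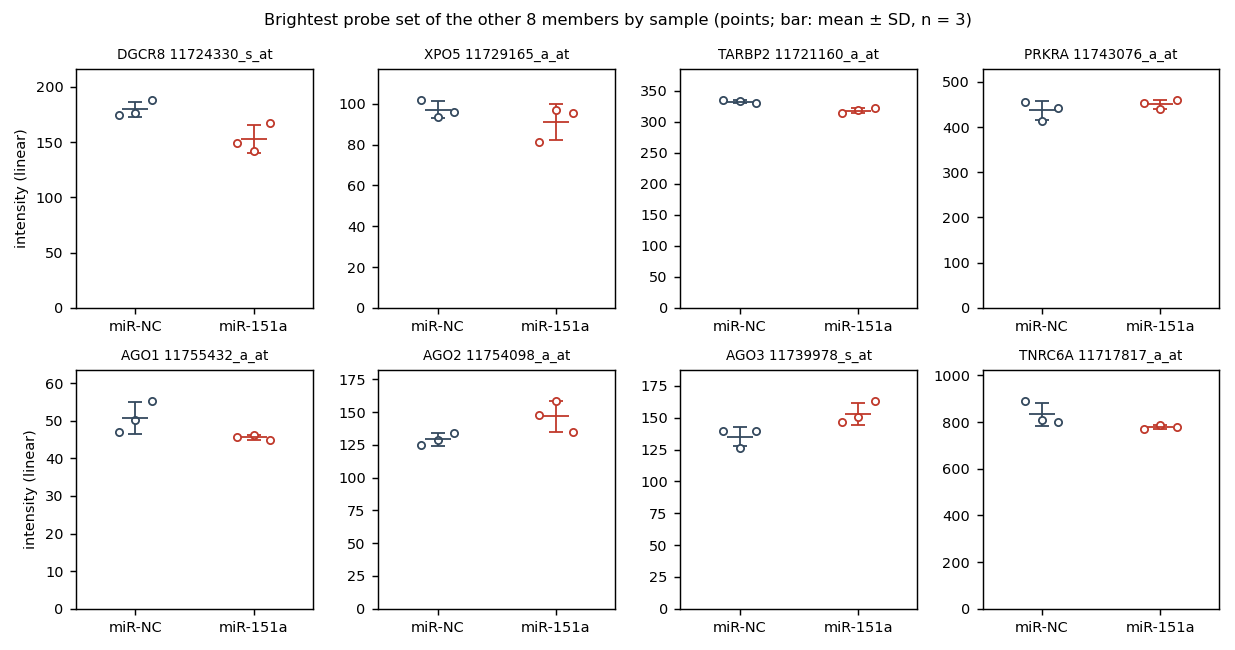
Linear intensity of the brightest probe set of DGCR8, XPO5, TARBP2, PRKRA, AGO1, AGO2, AGO3 and TNRC6A, each panel on its own axis from 0 (points are samples, bars the mean ± SD, n = 3 per group). None of these 8 probe sets passed the test; XPO5 and PRKRA overlap between groups, AGO2 and AGO3 have their miR-151a points above, and DGCR8, AGO1, TARBP2 and TNRC6A have them below.

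Of the Argonautes, which hold the guide strand, mean log2 levels with miR-151a were lower for AGO1 and higher for AGO2 and AGO3. None passed the threshold. AGO2, the Argonaute that can cut a fully matched target, has 1 probe set, with intensities of 148, 158 and 134.4 in miR-151a replicates 1 to 3 and of 125, 128 and 134.2 in miR-NC replicates 1 to 3. The groups met at miR-151a replicate 3 and miR-NC replicate 3. The means were 147 ± 11.9 (SD, n = 3) and 129 ± 4.72 (SD, n = 3), a log2 difference of 0.18 with a 95% interval from 0.02 to 0.34 (adjusted p = 0.13). With a variance trend and a robust fit in limma, AGO2 passed as higher over genes (adjusted p = 0.0488) but not over probe sets (adjusted p = 0.0535).

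AGO3 was measured by 4 probe sets, all above 0 in log2 difference. The brightest, 11739978_s_at, read 146, 150.4 and 163 with miR-151a and 140, 126 and 140 with miR-NC (139.7 in both miR-NC replicates 1 and 3 before rounding). The groups did not overlap, and the log2 difference was 0.18 (95% interval 0.03 to 0.33, adjusted p = 0.11). The other AGO3 probe sets lay at 0.12, 0.10 and 0.08 with overlapping groups and adjusted p from 0.26 to 0.67. AGO3 passed as higher in 1 of the 12 alternatives, the variance trend with a robust fit (adjusted p = 0.046).

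AGO1, whose single probe set was below the array median in every sample, read 45.8, 46.2 and 44.8 with miR-151a and 46.9, 50.1 and 55.1 with miR-NC. The miR-151a values were all lower, but by less than 1 intensity unit at the nearest pair. The log2 difference was -0.15 (95% interval -0.30 to 0.00, adjusted p = 0.19). The intervals of AGO1 and of AGO2 and AGO3 thus lie mostly on opposite sides of 0, and the difference between these genes was not tested.

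TNRC6A, the GW182 scaffold, had 1 of 6 probe sets past the threshold. 11748942_s_at read 607, 631 and 606 with miR-151a and 687, 706 and 690.4 with miR-NC. The groups stood apart, and it fell by 11.5% (log2 difference -0.18, 95% interval -0.29 to -0.07, adjusted p = 0.045). Without any 1 of the 6 samples it did not pass, with adjusted p from 0.066 to 0.14 (0.10, 0.066 and 0.12 on leaving out miR-151a replicates 1, 2 and 3, and 0.099, 0.14 and 0.11 for those of miR-NC). The probe set 11717818_at had a larger difference, with 372, 406 and 409 against 486, 442 and 451 (log2 difference -0.22, adjusted p = 0.054), and it passed with quantile normalization (0.041).

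The other TNRC6A probe sets were closer to 0. The brightest, 11717817_a_at, read 772, 788 and 781 with miR-151a and 889, 810.4 and 799 with miR-NC, and its log2 difference was -0.09 (95% interval -0.22 to 0.04). 11755871_s_at overlapped between groups, at -0.01 (-0.14 to 0.12). The remaining pair, 11751728_a_at and 11762292_at, were below the lower quartile of every array. Averaged over all 6 probe sets TNRC6A was at -0.12 (95% interval -0.21 to -0.03, adjusted p = 0.084 over genes).

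Leaving out 1 sample kept between 4 and 5 of the 29 probe sets as lower. The DICER1 probe sets other than 11719525_s_at and the DROSHA probe set 11749636_a_at were among them each time. By the brightest probe set, DICER1 did not pass over genes without miR-151a replicate 3 (log2 difference -0.22, adjusted p = 0.067) or without miR-NC replicate 1 (log2 difference -0.21, adjusted p = 0.062). A pseudocount of 32 and the removal of dim probe sets each called the same 11 probe sets as lower: all 4 of DICER1, 4 of DROSHA, 2 of TNRC6A and 1 of DGCR8. With a variance trend those 11 and AGO3 11739978_s_at passed. The shares of all probe sets that passed in these settings are not given here, so the 11 cannot be set against a background.

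Other genes of the pathway moved in both directions, and few of them passed. Of 62 genes in 5 lists of partners, all measured, 5 were higher and 5 lower by the brightest probe set, with a median of -0.02, where 7.27% and 8.11% of all genes were. Thus the counts of the partners by the brightest probe set were near the background of these arrays. By the mean over probe sets, 5 were higher and 8 lower, and the shares of all genes by that mean are not given here. In the list of 8 Microprocessor partners, HNRNPA1, an RNA-binding protein that aids the cropping of certain hairpins, fell by 11.3% and 0 were higher (1 at an unadjusted limma p under 0.05). Its intensities were 6048, 6152 and 6215 with miR-151a and 6793, 7064 and 6901 with miR-NC (adjusted p = 0.034), and 3 of its 5 probe sets passed. It did not pass without any 1 of the 6 samples (adjusted p from 0.070 to 0.12). None of 11 genes of precursor export and precursor control passed in limma (2 higher and 0 lower at an unadjusted p under 0.05, against 12.8% and 16.0% of all genes). The one with the smallest p was TUT7, a terminal uridylyltransferase of precursors, at 0.16 (adjusted p = 0.070). Its other probe set was at -0.02, and the mean over both was 0.07 (adjusted p = 0.37). DIS3L2, an exonuclease that degrades uridylated precursors, was chosen after its values were seen: it was at 0.17 on its brightest probe set (adjusted p = 0.10), but 1 of its 4 probe sets passed as higher, and the mean over the 4 passed at 0.26 (adjusted p = 0.0073 over genes). By that mean SRSF1 (-0.22, limma adjusted p = 0.0047), SRSF3 (-0.13, 0.0449), FKBP4 (-0.16, 0.0425) and CNOT6L (-0.22, 0.0215) passed as lower. These were also named after their values were seen, and by the brightest probe set they did not pass. SRSF1 and SRSF3 are Microprocessor partners, FKBP4 is an Argonaute partner and CNOT6L is in the list of deadenylases.

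Of 17 Argonaute and GW182 partners, 1 was higher and 2 were lower. DDX20, a helicase found with Argonaute complexes, went from 284 ± 10.5 in the miR-NC samples to 329 ± 4.39 in the miR-151a samples (SD, n = 3 each; log2 difference 0.21, adjusted p = 0.022). FMR1, an RNA-binding translational regulator, was at -0.22 (adjusted p = 0.029), and 1 of its 8 probe sets passed over all probe sets. IPO8, an importin that binds Argonautes, was at -0.18 (adjusted p = 0.049), although 0 of its 4 probe sets passed when adjusted over all probe sets, and their mean was at -0.06. With the mean over probe sets, FMR1 was at -0.10. IPO8 did not pass without any 1 of the 6 samples (adjusted p from 0.066 to 0.14). With 1 sample left out, DDX20 passed only without miR-NC replicate 2 (0.046, and 0.057 to 0.080 without another sample), and FMR1 did not pass without miR-151a replicate 1 (0.055) or 3 (0.087), nor without miR-NC replicate 1 (0.0945) or 2 (0.090).

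The paralogues of the members were named as family members, after their values were seen. By the brightest probe set none passed: AGO4, the remaining Argonaute, was at 0.03 (adjusted p = 0.84), and the GW182 proteins TNRC6B and TNRC6C were at -0.07 (adjusted p = 0.48) and 0.05 (adjusted p = 0.54). For TNRC6B the brightest probe set had the difference nearest 0 of its 10. The others reached -0.24, 2 passed as lower, and the mean over the 10 did pass, at -0.14 (adjusted p = 0.033 over genes). AGO4 and TNRC6C had 0 of 4 and 0 of 3 probe sets past the threshold, and by the mean over probe sets they were at 0.03 and 0.01.

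The largest difference of the 5 lists was that of CNOT4, in the list of deadenylases and the proteins associated with them. In the counts below, deadenylases are all genes of this list. Of 13 genes, 2 were higher and 1 was lower. CNOT4, a ubiquitin ligase that associates with the CCR4-NOT complex, read 450.3, 502 and 494 with miR-151a and 332, 346 and 336 with miR-NC. It rose by 42.3% on its brightest probe set (log2 difference 0.51, adjusted p = 0.0012). Only 2 of its 7 probe sets passed, with the 7 spread from -0.19 to 0.51, and the mean over them was 0.18 (adjusted p = 0.027). CNOT6, a catalytic deadenylase subunit, read 269, 274 and 286 against 326, 359 and 358, and fell by 20.5% (log2 difference -0.33, adjusted p = 0.0071). For CNOT6, 3 of 4 probe sets passed as lower, and the 4 lay between -0.35 and -0.20. PAN2, a subunit of the other cytoplasmic deadenylase, was at 0.18 (adjusted p = 0.031) and passed only without miR-151a replicate 2, at 0.042, when 1 sample was left out (0.078 to 0.094 without another sample).

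Among 13 genes of decapping, translational repression and decay, 2 were higher and 1 was lower. PATL1, a decapping scaffold, rose by 19.0%, with 483 ± 8.79 in the miR-NC samples and 574 ± 21.3 in the miR-151a samples (SD, n = 3 each), with an adjusted p of 0.012 and 3 of 4 probe sets past the threshold. DDX6, the helicase that represses translation of targeted messages, fell by 14.2%, with 542 ± 2.42 in the miR-NC samples and 465 ± 14.4 in the miR-151a samples (SD, n = 3 each; adjusted p = 0.015), and 2 of its 3 probe sets passed as lower. DCP1B, a cofactor of the decapping enzyme, was at 0.21 on its brighter probe set (adjusted p = 0.022) and at -0.02 on the other. Without miR-151a replicate 3, miR-NC replicate 2 and miR-NC replicate 3, DDX6 had adjusted p of 0.052, 0.055 and 0.055. DCP1B did not pass without miR-151a replicate 2 (0.066) or 3 (0.060), nor without miR-NC replicate 1 (0.075) or 3 (0.077).

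**Figure D4:**
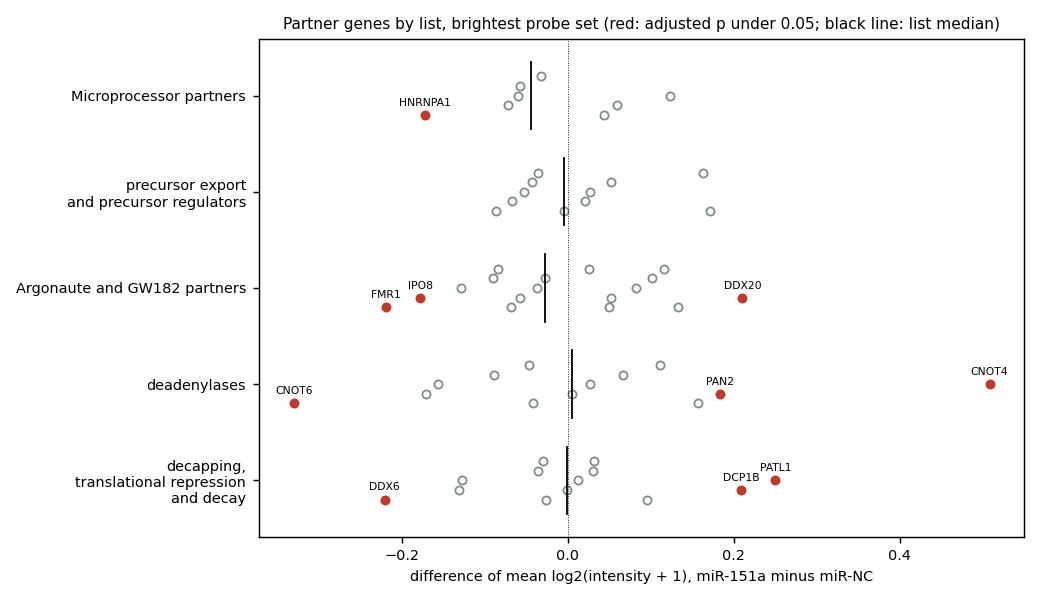
Difference of mean log2(intensity + 1), miR-151a minus miR-NC, for the brightest probe set of each of 62 partner genes in 5 lists (each point is a gene, filled red where the adjusted p was under 0.05, with vertical position within a list for display only; black lines are list medians). The list medians lie between -0.05 and 0.00, and the points farthest from 0 are CNOT4 at 0.51 and CNOT6 at -0.33.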

How the data were processed

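The authors deposited linear intensities per probe set, in 49395 rows with 1 column for each of 6 samples. MAS5 is named, without a version or a role, per the submitters' processing notes; the sources used here do not give the background correction, summarization or scaling. The labels name an Affymetrix whole-transcript labelling protocol, while the probe set names follow the style of 3 prime expression arrays, so the labelling is not settled. The columns have nearly equal quantiles, and a change common to most transcripts cannot be detected. The 102 control probe sets stayed out of the tests. Gene names come from the platform annotation, updated to RefSeq symbols by Entrez identifier: 44988 named 1 gene (44961 matched), 1832 several and 2473 none.

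On the log2(intensity + 1) scale, the groups were compared without covariates by lmFit and eBayes of limma 3.58.1, run under R 4.3.3, over all probe sets, and over genes with the probe set of the highest mean level, with Benjamini-Hochberg adjustment and a threshold of 0.05. Percent changes are on this scale, which understates changes of dim probe sets. With 3 samples against 3, an exact permutation test cannot go below p = 0.1. The scripts were tested on simulated data. Files and labels name no batch. Titles share replicate numbers, but nothing says that these pair samples.

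All 10 members were described with every probe set. In each of 5 partner lists the passing genes were named, at most 4 by smallest p, or else the gene with the smallest p; 19 marker genes were also read. The members and lists were chosen with earlier results of these data known. Figures were drawn with matplotlib 3.10.9. As alternatives, each sample was left out in turn, the replicate number was fitted as a block, probe sets were averaged per gene, the pseudocount was raised to 32, dim probe sets (mean level under the 0.25 quantile) were removed, arrays were quantile normalized or centred on their medians, and limma was run with a robust variance trend. Promoter windows were read from a RefSeq table of GRCh38.p14.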

Additional observations from a re-analysis of the deposited data

How the results depend on the processing

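Of 344 values of the member probe sets under the alternatives, 302 kept their direction and their side of the threshold, 11 no longer passed, 23 newly passed and 8 changed sign. The changes of sign were in probe sets near 0: DGCR8 11724329_a_at, at 0.01, became -0.0051 with median centring, and between -0.0344 and 0.0909 when 1 sample was left out (negative without miR-151a replicate 1, -0.0344, or 3, -0.0338, and miR-NC replicate 1, -0.012, or 3, -0.018); TNRC6A 11755871_s_at, at -0.01, lay between -0.046 and 0.0229 (positive without miR-151a replicate 1, 0.0229, and miR-NC replicate 1, 0.0053, or 3, 0.0017). TARBP2 went from -0.0636 to 0.0624 with the mean over probe sets. The 6 member probe sets lower became 11 with a pseudocount of 32, 11 with removal of dim probe sets and 11 with a variance trend, where 1 was also higher. The 1 member gene lower became 2 with quantile normalization, 3 with median centring, 3 with a pseudocount of 32, 3 with removal of dim probe sets, 3 with a variance trend (and 2 higher) and 2 with the mean over probe sets. Among partners, a pseudocount of 32 gave 1 Microprocessor partner higher, 1 precursor gene higher, 2 Argonaute partners higher, 2 deadenylases lower and 2 decapping genes lower; a variance trend gave 1, 1, 2, 3 and 2. Removal of dim probe sets gave 1 precursor gene higher and 2 deadenylases lower, quantile normalization 1 Argonaute partner lower, and the mean over probe sets 3 Microprocessor partners lower, 1 precursor gene higher, 2 deadenylases lower and 1 decapping gene higher. The shares of all probe sets and of all genes that passed under each alternative are not given here, so these counts have no background beside them. The causes were not tested.

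With the replicate block, limma gave 5 member probe sets lower and 1 member gene lower, 0 Microprocessor partners lower (1 at an unadjusted p under 0.05), 0 Argonaute partners higher and 0 lower (1 and 2 unadjusted), 1 deadenylase higher, 1 decapping gene higher and 0 lower (3 unadjusted). Deviations of same-numbered samples correlated at -0.073, -0.15 and 0.094, and those of differently numbered samples at -0.087 to 0.156. Deviations from a mean of 3 samples sum to 0 within a group, so these values cannot decide whether the samples are paired. Leaving out 1 sample gave 4 to 5 member probe sets lower and 0 to 0 higher, 0 to 1 member genes lower and 0 to 0 higher, 0 to 0 Microprocessor partners lower or higher, 0 to 0 precursor genes in either direction, 0 to 1 Argonaute partners higher and 0 to 1 lower, 1 to 2 deadenylases higher and 1 to 1 lower, and 1 to 2 decapping genes higher and 0 to 1 lower. Probe sets near background, 4 of the 29, limit what can be read for DROSHA, DGCR8 and TNRC6A.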
